A study of Mus musculus with 12 samples.

Results

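The genes of natural killer (NK) cell recognition and killing were followed in mouse spleen. They were chosen by symbol, as every row of the count table matching the killer lectin-like receptor names Klra to Klrk or the granzyme names Gzma to Gzmn, with Prf1, Ncr1, Nkg7, Eomes, Fasl and Txk added. This gave 44 of 32121 genes. The rule used no measured value, but it was set with earlier results of these data known. Spleens came from 6 mice of the strain given as C57BL/6, each cut into 2 pieces that were sequenced apart. In 3 mice, SB1 to SB3, the genotype was VEC-Cre, SB Transposase and onc2, in which a Cre recombinase under an endothelial promoter is combined with a transposase that moves DNA elements and with a mutagenic transposon. Endothelial promoters of this kind are known to be active also in the embryonic endothelium that gives rise to blood cells. The other 3 mice were wild type (WT) and are called controls. Ages are not given, and for controls the labels call piece 1 section A and piece 2 section B. The study asked whether both pieces of a spleen carry the same RNA, as a reading of how clonal each spleen is.

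NK cells are lymphocytes that kill without a rearranged antigen receptor. They balance inhibitory receptors, which read MHC class I molecules, against activating receptors, and when activation wins they release granules of perforin, which opens the target membrane, and granzymes, the proteases that enter through it. Cytotoxic T cells share the granule genes and some of the receptors, and several of these genes are also known in myeloid cells. In rodents the receptors for class I molecules are lectin-like and lie mostly in one complex on chromosome 6, the chromosome that holds 30 of the 44 genes in the GRCm38 annotation. Of the granzyme genes analysed here, 5 lie together on chromosome 14 and 2 on chromosome 13.

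Libraries held 14320833 to 22031026 counts, and values are CPM, counts scaled to a common library size. Of 5 spleen stroma markers, the transcription factors Tlx1 and Nkx2-5 were above 1 CPM in every animal and were not called. Both were lower in each SB animal than in every control. Tlx1 was at 10.7, 18.5 and 9.85 CPM in SB1, SB2 and SB3, against 19.9 to 25.5 CPM in controls. Nkx2-5 was at 2.47, 3.605 and 1.77 CPM, against 4.97 to 6.35 CPM. The chemokines Ccl21a, Ccl19 and Cxcl13 were called lower. Ccl21a was at 2.81, 4.88 and 2.16 CPM in SB1, SB2 and SB3, against 148 to 192 CPM in controls. Marker RNA of other cell types differed widely between the genotypes. The 6 B cell markers summed to 108.7, 96.3 and 51.4 CPM in SB1, SB2 and SB3, against 6401 to 7200 CPM in controls, and the 12 T cell markers to 51.1, 155 and 480 CPM, against 698 to 807 CPM. The adaptor gene Lat made up most of the T cell sum in SB3, and the other 11 markers summed to 32.6, 115.8 and 13.3 CPM in SB1, SB2 and SB3, against 574 to 667 CPM in controls. The 6 erythroid markers stood at 943, 3828 and 2806 CPM, against 279.8 to 734 CPM in controls, with 4 of 6 called higher, and the 6 neutrophil markers at 98.3, 1169 and 597 CPM, against 60.9 to 176 CPM, with 1 of 6 called higher. Their part in the lower receptor values was not tested. Xist RNA was at 2271, 1002 and 1.68 CPM in SB1, SB2 and SB3, against 1.49 to 2.44 CPM in controls, so the genotypes were not matched in sex-linked RNA. H2-Ea-ps, a class II gene annotated as a pseudogene, was at 0.0971 to 0.242 CPM in SB animals, against 86.8 to 97.5 CPM in controls, although every label gives one strain. Inbred strains are known to differ in the number and sequence of Ly49 and NKR-P1 genes, and strain and genotype cannot be told apart here for reads counted on one reference. Because the tissue is bulk, fewer cells of a type and less RNA per cell cannot be told apart either.

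Most of the receptor and granule genes had lower values in SB than in control spleens, few passed the test, and the SB animals differed widely among themselves. Over both pieces summed, 36 of the 44 genes passed the filter on low counts. Of these, 2 were lower in SB and 0 were higher by edgeR's quasi-likelihood test at an adjusted p under 0.05, where 9.1% of the 17328 genes tested were lower and 7.99% were higher. At an unadjusted p under 0.05 in the same test there were 6 of the 36, where 5995 of all 17328 genes were under it. The 6 were Klri2, Txk, Klrg1, Klrd1, Klra13-ps and, in the other direction, Gzmb. DESeq2 called 5 of 44 lower, where it called 8.62% of all genes lower, and limma voom with the animal as a random effect 11 of 33 lower, where voom called 14.3% of all genes lower. Both called 0 higher. The median log2 change was -0.76 over the 36 genes and 0.11 over all genes tested, and 29 of the 36 had a negative log2 change, 80.6% against 44.7% of all genes. In 10 of the 36 the 6 SB libraries all lay below the 6 control libraries, where 16.4% of all genes did so, and in 0 all lay above, where 13.2% did so.

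**Figure D1:**
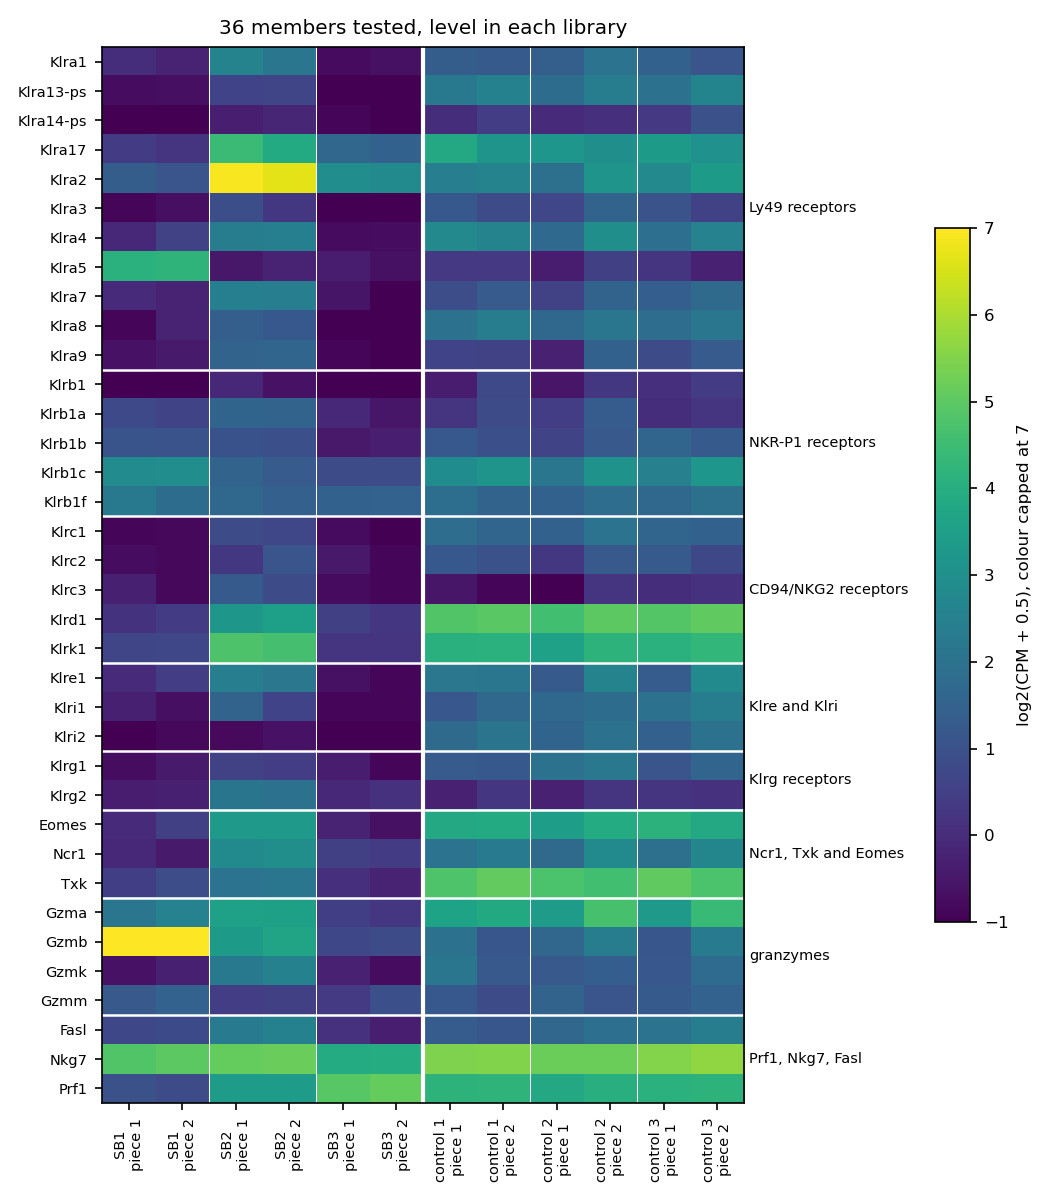
Level of the 36 tested genes (rows, grouped by family) in the 12 libraries (columns, SB pieces left of control pieces), as log2(CPM + 0.5) with the colour capped at 7. Rows are dark in SB1 and SB3 for most receptors, brighter in SB2, and even across the control pieces, while Gzmb in SB1 and Klra2 in SB2 are the brightest cells.

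Klri2 and Txk were the called pair. Klri2, an activating lectin-like receptor that pairs with Klre1 (ENSMUSG00000043932, chr6:129729041-129740484, minus strand), had 0 and 1 counts in the pieces of SB1, 1 and 3 in SB2 and 0 and 0 in SB3, against 38 to 68 counts in each control piece. All 6 SB pieces lay far below all control pieces, at a mean of 0.0499 ± 0.0634 CPM in SB against 3.03 ± 0.289 CPM in controls (SD, n = 3 animals each). The log2 change was -5.89 (SE 0.94, edgeR adjusted p = 0.0138), and it rests on 5 counts in all SB libraries together. Txk, a Tec family kinase of T and NK cells (ENSMUSG00000054892, chr5:72695978-72752777, minus strand), was at 0.889 and 1.36 CPM in the pieces of SB1, 3.59 and 3.92 CPM in SB2 and 0.559 and 0.345 CPM in SB3, against 23.6 to 33.5 CPM in control pieces. SB2 was the highest of the SB spleens and still below every control piece. The log2 change of Txk was -3.98 (SE 0.81, edgeR adjusted p = 0.0266). Both calls needed all 3 controls: without control 1, 2 or 3 the adjusted p of Klri2 was 0.0697, 0.0776 and 0.0742, and that of Txk 0.0999, 0.0979 and 0.104, and without SB1 that of Txk was 0.0501. Leaving out control 1, 2 or 3 also left 2.22%, 1.4% and 2.09% of all genes called, so 0 of 37 of these genes is near the background. Txk was lower beside T cell markers, of which 8 of 12 were lower, 0 higher and 4 not called. Cd3e, a chain of the T cell receptor complex, was at 1.45, 17.3 and 0.995 CPM in SB1, SB2 and SB3, against 62.7 to 79.3 CPM in controls, and the part of T cells in the Txk result was not tested.

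Leaving out SB2 moved the genotype result most. Without it 22 of 37 tested genes were lower by edgeR, where 17.7% of all genes were lower, and 0 were higher, and the median log2 change moved to -2.99. Klrd1, Klrc1, Klrk1, Gzmk, Eomes, Ncr1 and 9 Ly49 genes and pseudogenes were among those 22. Against the range of the 6 control pieces, 28 of 36 genes had both pieces of SB1 below it, where 34.9% of all genes did, and 2 had both above, where 31.4% did. In SB3 the numbers were 29 below, where 35.7% of all genes were below, and 1 above, where 33.7% were above. In SB2 there were 13 below, where 33.9% of all genes were below, and 11 were above, where 33.6% were above. The median log2 difference from the control mean was -1.68, -0.23 and -1.91 over the 36 genes in SB1, SB2 and SB3, and -0.03, -0.02 and -0.02 over all genes tested. These 3 sets of values share the same controls, so they are given side by side. Below the control range in both SB1 and SB3 were 25 genes, of which 15 were not below it in SB2.

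An F test among the SB animals, whose error is the spread between pieces of one spleen so that its p-values compare these spleens only, called 31 of 33 genes by edgeR, where 72.8% of all genes were called. Klrb1f and Klri2 were not called. The highest SB spleen was SB2 for 25 of the 31, SB1 for 5 (Gzmb, Gzmm, Klra5, Klrb1b and Klrb1c) and SB3 for 1 (Prf1). The same edgeR test among controls called 0 of 33, where 0.335% of all genes were called. At an unadjusted p under 0.05 there were 2 of 33, where 1010 of 15523 genes were under it. Without SB2 the test between the other two SB animals called 15 of 35 genes, of which 12 were lower and 3 higher in SB3 than in SB1, where 21.7% of all genes were lower and 23.8% higher.

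**Figure D2:**
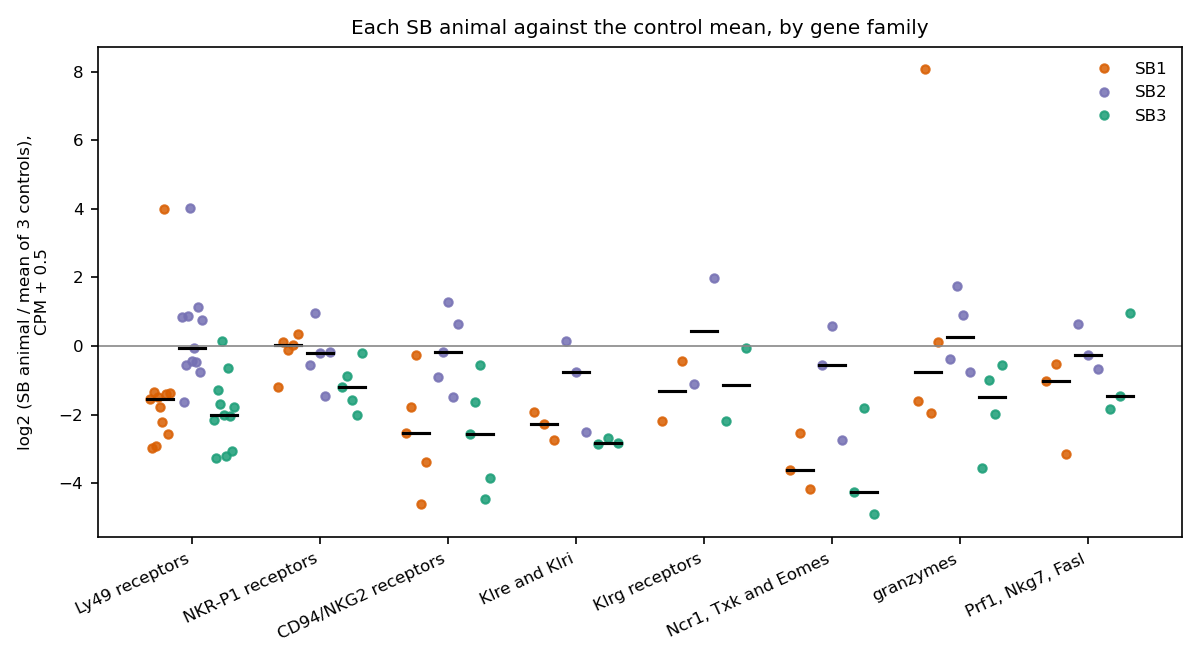
Log2 ratio of each SB animal to the mean of the 3 controls (y axis, computed on CPM + 0.5) for the 36 tested genes by family (x axis), with 1 point per gene and a black line at the median of each family. Medians of SB1 and SB3 lie below 0 in all families but the NKR-P1 receptors of SB1, those of SB2 lie nearer to 0 in the other families, and Gzmb in SB1 lies above 8.

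The Ly49 receptors (Klra genes) are the rodent receptors for MHC class I molecules. Most inhibit through a tyrosine motif near the start of the protein, the immunoreceptor tyrosine-based inhibitory motif (ITIM), and Ly49D (Klra4) and Ly49H (Klra8), which lack it, activate through the adaptor DAP12, encoded by Tyrobp. Searched in the first 80 codons as isoleucine, valine, leucine or serine, any residue, tyrosine, 2 more residues, and valine or leucine, the motif was found in 9 of 11 Ly49 genes with a coding transcript in GENCODE release M21, all but Klra4 and Klra8. The first 60 coding bases of the genes that the results below turn on are shown 5′ to 3′, with the inhibitory motif in capitals. All of these genes lie on chromosome 6 and are given in the sense of the transcript. Among them, the inhibitory ones held the motif and the activating ones did not.
Klra1: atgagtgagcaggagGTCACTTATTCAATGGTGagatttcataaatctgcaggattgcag
Klra2: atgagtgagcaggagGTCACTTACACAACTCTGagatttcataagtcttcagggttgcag
Klra5: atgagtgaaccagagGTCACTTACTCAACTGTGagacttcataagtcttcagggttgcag
Klra4: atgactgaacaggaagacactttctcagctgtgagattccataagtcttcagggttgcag
Klra8: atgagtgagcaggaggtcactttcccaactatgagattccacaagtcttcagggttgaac
Klrc1: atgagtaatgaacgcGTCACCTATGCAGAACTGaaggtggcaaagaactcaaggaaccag
Klrc2: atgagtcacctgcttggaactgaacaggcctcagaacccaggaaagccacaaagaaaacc
Klrc1 and Klrc2, the inhibitory NKG2A and the activating NKG2C described below, are split by the same motif. Klri1 held the motif and its neighbour Klri2 did not. The search did not sort every receptor, since Klrb1c, an activating receptor described below, also held a match, at codon 53.

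Ly49 genes are close copies, and reads that fit several of them may be counted on one, shared or dropped, a step that is not given in the sources used here. Of the distinct 50-base words in their annotated transcripts, 39.8% were shared with other genes for Klra10, 33.1% for Klra8, 31.5% for Klra9, 25.6% for Klra14-ps and 20.7% for Klra3, so the levels of these genes are uncertain. Klra2 and Klra17 shared 0 words and Klra5 shared 0.656%, so the 3 genes with the largest values below are the well separated ones. Outside the Ly49 genes, Klrc1 shared 38.6% and Klrc3 36.3% of words, mostly with Klrc2, and Klrb1b shared 27.2%, mostly with the overlapping Gm44511.

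Each SB spleen carried its own mix of Ly49 RNA, while the controls were alike. The 14 Ly49 genes summed to 22.1, 149.5 and 10.1 CPM in SB1, SB2 and SB3, against 35.4 to 39.7 CPM in controls. Klra5 alone took 77.6% of these counts in SB1, against 1.32% to 1.90% in controls. Klra2 took 73.1% in SB2 and 68.9% in SB3, against 13.1% to 20.1% in controls. The other 11 genes, without Klra2, Klra5 and Klra17, summed to 2.30, 22.6 and 0.413 CPM in SB1, SB2 and SB3, against 21.2 to 23.1 CPM in controls. SB2 thus held the remaining Ly49 genes at the control sum, and SB1 and SB3 were far below it.

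**Figure D3:**
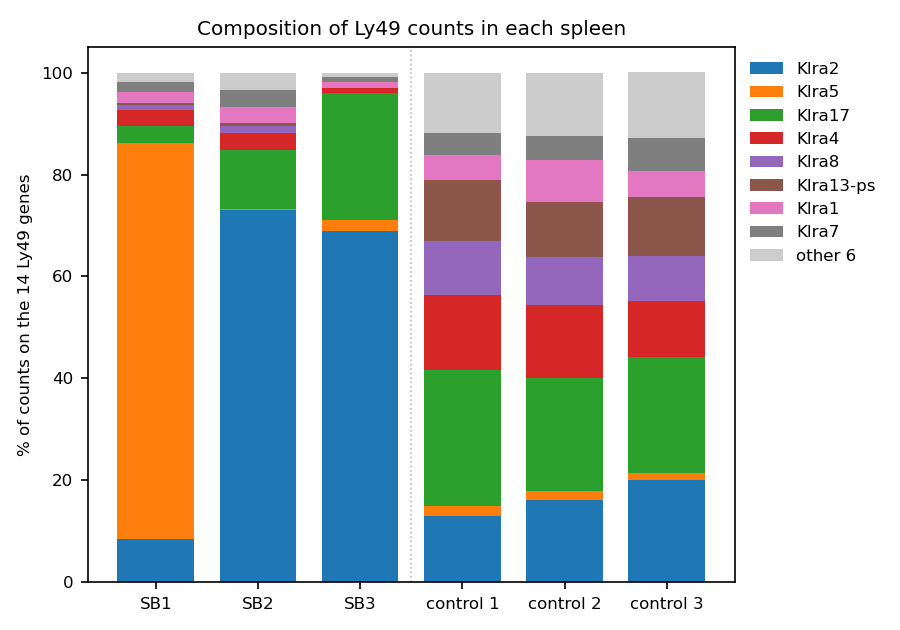
Share of the counts on the 14 Ly49 genes (y axis, per cent) taken by 8 of them and by the other 6 together, in each animal (x axis, SB left of controls, both pieces summed). Klra5 fills 77.6% of the bar of SB1 and Klra2 73.1% and 68.9% of those of SB2 and SB3, while the 3 control bars are alike.

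Among 11 tested Ly49 genes 0 passed the genotype test by edgeR, where 2961 of all 17328 genes passed. Of the 11, 1, Klra13-ps, was at an unadjusted p under 0.05, where 5995 of 17328 genes were. Among SB animals 10 of 10 tested differed, where 72.8% of all genes did. Klra2, the inhibitory receptor Ly49B known from myeloid cells, stood at 2.04 and 1.68 CPM in the pieces of SB1, 120.2 and 101.4 CPM in SB2 and 7.08 and 6.60 CPM in SB3, against 3.35 to 9.67 CPM in control pieces (median 5.88). Klra17, the receptor Ly49Q known from plasmacytoid dendritic and myeloid cells, stood at 0.837 and 0.682 CPM in SB1, 21.5 and 14.3 CPM in SB2 and 2.61 and 2.31 CPM in SB3, against 7.34 to 13.6 CPM in control pieces (median 8.47). Both were above all control pieces in SB2, and Klra17 was below all of them in SB1 and SB3. In the same spleen, SB2, the 6 macrophage and monocyte markers summed to 5730 CPM, with 1007 and 411 CPM in SB1 and SB3, against 488 to 518 CPM in controls. Without Mrc1 the other 5 summed to 311, 3904 and 299 CPM in SB1, SB2 and SB3, against 414 to 455 CPM in controls. SB1 was then below the controls. The 5 plasmacytoid dendritic cell markers summed to 53.0, 206 and 109 CPM in SB1, SB2 and SB3, against 627 to 742 CPM in controls, and none of either list was at 0. Most of that control sum was Ly6d, and without it the other 4 summed to 49.8, 196 and 104.9 CPM in SB1, SB2 and SB3, against 109.4 to 130.5 CPM in controls, so that SB2 was then above the controls. The part of myeloid cells in the Klra2 and Klra17 values was not tested.

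Klra5, the inhibitory receptor Ly49E, stood at 16.6 and 17.7 CPM in the pieces of SB1, 0.220 and 0.361 CPM in SB2 and 0.279 and 0.148 CPM in SB3, against 0.263 to 0.917 CPM in control pieces. Both pieces of SB1 were far above every other library, and the mean of that animal was 27.9 times the control mean. Its closest neighbour in the table, the small RNA gene Gm23977 that lies 991 bases away, had 18 counts in SB1 and 0 in SB2 and in SB3, against 1 count in all controls together, so it was highest in the same spleen. The neighbouring Ly49 genes were not: Klra17 was below the controls in SB1, and Klra6 was at 0.142 CPM there, against 0.260 to 0.963 CPM in controls. Klra1, the inhibitory Ly49A, stood at 0.523 and 0.372 CPM in SB1, 5.42 and 3.87 CPM in SB2 and 0.0931 and 0.148 CPM in SB3, against 1.64 to 3.67 CPM in control pieces. Klra7 (Ly49G) and Klra9 (Ly49I), also inhibitory, showed the same order, above every control piece in SB2 and below every one in the other two SB animals.

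The activating Klra4 stood at 0.418 and 0.992 CPM in SB1, 4.61 and 5.001 CPM in SB2 and 0.0931 and 0.0985 CPM in SB3, against 2.83 to 7.41 CPM in control pieces. Klra8, the receptor for a cytomegalovirus protein, stood at 0.0523 and 0.372 CPM in SB1, 2.20 and 1.80 CPM in SB2 and 0 in both pieces of SB3, against 2.70 to 4.72 CPM in control pieces. Klra4 overlapped the controls in SB2, and Klra8 was below all control pieces in every SB piece. Klra13-ps, a Ly49 pseudogene, was at 0.105 and 0.124 CPM in SB1, 1.02 and 1.08 CPM in SB2 and 0 in SB3, against 3.02 to 5.65 CPM in control pieces (log2 -3.48, SE 1.37, edgeR adjusted p = 0.135). It held 10.9% to 11.99% of Ly49 counts in controls and at most 0.710% in SB animals. Klra3 and Klra14-ps stayed at or under 2.42 CPM in every library, and of the low genes that were not tested, Klra6, Klra10 and Klra11-ps, none exceeded 1.08 CPM.

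The NKR-P1 receptors (Klrb1 genes) recognise Clec2 proteins, and 0 of 5 tested passed the genotype test by edgeR, with 0 at an unadjusted p under 0.05. Of all 17328 genes, 2961 passed and 5995 were under 0.05 unadjusted. The NKR-P1 receptors were the family closest to control levels in SB1, with 4 of 5 inside or straddling the control range. Klrb1c, the activating NK1.1 antigen, stood at 6.70 and 7.07 CPM in SB1, 2.42 and 1.96 CPM in SB2 and 1.26 and 1.28 CPM in SB3, against 3.88 to 8.79 CPM in control pieces. SB1 lay inside the control range, and the other two SB animals lay below it, unlike the order of most Ly49 genes. Klrb1f, an activating member, varied little, at 4.24 and 3.04 CPM in SB1, 2.78 and 2.22 CPM in SB2 and 2.28 and 2.37 CPM in SB3, against 2.30 to 3.41 CPM in control pieces (log2 0.02, SE 0.34). Klrb1-ps1, too low to be tested, had 20 and 11 counts in the pieces of SB3, 2 and 1 in SB1, 1 and 0 in SB2, and 1 count in all 6 control pieces together. Its neighbour Clec2e, chosen for its position, was at 0.114, 0.0606 and 2.86 CPM in SB1, SB2 and SB3, against 0.0297 to 0.162 CPM in controls, so both stood highest in the same spleen.

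The CD94/NKG2 receptors read the class I molecule Qa-1, which presents leader peptides, except for NKG2D (Klrk1), which reads stress-induced ligands. Of 5 tested, 0 passed the genotype test by edgeR, where 2961 of all 17328 genes passed. At an unadjusted p under 0.05 there was 1 of 5, Klrd1, where 5995 of 17328 genes were under it. Klrd1, the shared CD94 chain (chr6:129591782-129598775), stood at 0.628 and 0.806 CPM in SB1, 8.86 and 10.8 CPM in SB2 and 0.931 and 0.690 CPM in SB3, against 23.2 to 32.2 CPM in control pieces (log2 -2.90, SE 1.10, edgeR adjusted p = 0.124). Klrk1 stood at 1.10 and 1.12 CPM in SB1, 26.9 and 24.3 CPM in SB2 and 0.652 and 0.640 CPM in SB3, against 11.4 to 19.0 CPM in control pieces. In SB2 Klrd1 was thus below and Klrk1 above all control pieces, and the ratio of Klrd1 to Klrk1 counts was 0.641, 0.394 and 1.26 in SB1, SB2 and SB3, against 1.71 to 1.90 in controls. Klrc1, the inhibitory NKG2A chain, stood at 0.0523 and 0.0620 CPM in SB1, 1.32 and 1.13 CPM in SB2 and 0.0931 CPM and 0 in SB3, against 2.30 to 3.67 CPM in control pieces. Klrc3 (NKG2E) went the other way in SB2, at 1.90 and 1.29 CPM, against 0 to 0.655 CPM in control pieces, with the reads it shares with Klrc2 in mind.

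Klre1, Klri1 and Klri2 encode receptors in which Klre1 pairs with the inhibitory Klri1 or the activating Klri2. All 3 were below the control pieces in SB1 and SB3, where Klre1 was at 0.471 and 0.868 CPM in SB1 and 0.140 and 0.0493 CPM in SB3, and Klri1 at 0.314 and 0.124 CPM in SB1 and 0.0466 and 0.0493 CPM in SB3. In SB2 they parted: Klre1 was at 4.91 and 3.97 CPM, against 1.91 to 6.40 CPM in control pieces, and Klri1 at 2.42 and 1.03 CPM, against 1.75 to 4.63 CPM, while Klri2 had 4 counts beside 53 of Klri1. The ratio of Klri2 to Klri1 counts was 0.125, 0.0755 and 0 in SB1, SB2 and SB3, against 0.694 to 1.46 in controls. With 8 and 2 counts of Klri1, the ratios of SB1 and SB3 have almost no depth behind them. Klrg1, a receptor for cadherins found on mature effector cells, stood at 0.105 and 0.248 CPM in SB1, 0.952 and 0.876 CPM in SB2 and 0.279 and 0.0493 CPM in SB3, against 1.66 to 4.13 CPM in control pieces (log2 -2.62, SE 0.81, edgeR adjusted p = 0.0764). Klrg2 was above the control range in SB2, at 3.81 and 3.56 CPM against 0.329 to 0.713 CPM.

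Ncr1, the NKp46 receptor that marks NK cells and related innate lymphoid cells, stood at 0.418 and 0.248 CPM in SB1, 6.44 and 7.17 CPM in SB2 and 0.931 and 0.838 CPM in SB3, against 2.89 to 6.55 CPM in control pieces. Eomes, the T-box factor of mature NK and memory CD8 T cells, stood at 0.471 and 0.930 CPM in SB1, 9.37 and 9.54 CPM in SB2 and 0.373 and 0.148 CPM in SB3, against 10.4 to 17.3 CPM in control pieces. Neither passed the genotype test, with edgeR adjusted p of 0.675 and 0.308. Ncr1 in SB2 reached the top of the control range, whereas Eomes there lay just under it. In the other two SB animals both were far below the controls, as was Tbx21, the second T-box factor of NK cells, at 0.426, 4.30 and 0.291 CPM in SB1, SB2 and SB3, against 17.0 to 21.9 CPM in controls (log2 -3.60, edgeR adjusted p = 0.0764).

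Of the granule proteins, granzyme B gave the largest single value. Gzmb, the caspase-activating granzyme (ENSMUSG00000015437, chr14:56258838-56262260, minus strand), stood at 977 and 881 CPM in the pieces of SB1, 9.81 and 12.1 CPM in SB2 and 1.16 and 1.33 CPM in SB3, against 1.70 to 4.59 CPM in control pieces (median 3.04). SB1 and SB2 lay above and SB3 below every control piece. The mean of SB1 was 313 times the control mean, yet with 3 unlike SB animals the genotype test gave log2 6.72 (SE 2.45, edgeR adjusted p = 0.113), and without SB1 the log2 change was 1.06. Gzmb shared 0 words with other genes. Its nearest neighbours in the table were low everywhere, with 8 counts of Gzmc and 10 of Gm4819 in SB1, against 4 to 5 and 3 to 6 counts in each control. Gzme, Gzmf and Gzmn had 2, 1 and 2 counts in all SB libraries together and 0 in controls, and Gzmd and Gzmg were not analysed here.

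The other granzymes did not follow Gzmb. Gzma, a tryptase granzyme of NK and T cells, stood at 3.87 and 5.40 CPM in SB1, 11.5 and 11.2 CPM in SB2 and 0.885 and 0.690 CPM in SB3, against 9.54 to 24.8 CPM in control pieces. The ratio of Gzmb to Gzma counts was 204, 0.987 and 1.58 in SB1, SB2 and SB3, against 0.190 to 0.206 in controls. Gzmk, best known from memory CD8 T cells, stood at 0.157 and 0.310 CPM in SB1, 4.25 and 5.21 CPM in SB2 and 0.326 and 0.0985 CPM in SB3, against 1.77 to 3.92 CPM in control pieces. Gzmm, a granzyme of innate lymphocytes, ranged from 0.792 to 2.36 CPM in SB pieces and from 1.26 to 2.43 CPM in control pieces.

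Perforin parted from granzyme B. Prf1 (ENSMUSG00000037202, chr10:61297833-61304680, plus strand) stood at 1.47 and 1.30 CPM in SB1, 10.3 and 9.90 CPM in SB2 and 29.9 and 33.8 CPM in SB3, against 13.7 to 17.8 CPM in control pieces. The spleen with the most Gzmb thus had the least Prf1, and SB3, lowest in Gzmb and Gzma, was alone above the controls in Prf1. The mean of SB3 was 1.97 times and that of SB1 0.085 times the control mean, and the genotype test gave log2 -0.17 (SE 0.96, edgeR adjusted p = 0.918). Nkg7, a granule membrane protein needed for degranulation, stood at 28.1 and 30.9 CPM in SB1, 33.9 and 35.7 CPM in SB2 and 14.7 and 15.0 CPM in SB3, against 36.05 to 50.1 CPM in control pieces (log2 -0.67, SE 0.34, edgeR adjusted p = 0.215). All SB pieces were below all control pieces, by less than for most receptors. Fasl, the death ligand that kills through Fas, stood at 1.15 and 1.24 CPM in SB1, 4.47 and 5.21 CPM in SB2 and 0.606 and 0.296 CPM in SB3, against 1.70 to 4.63 CPM in control pieces.

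**Figure D4:**
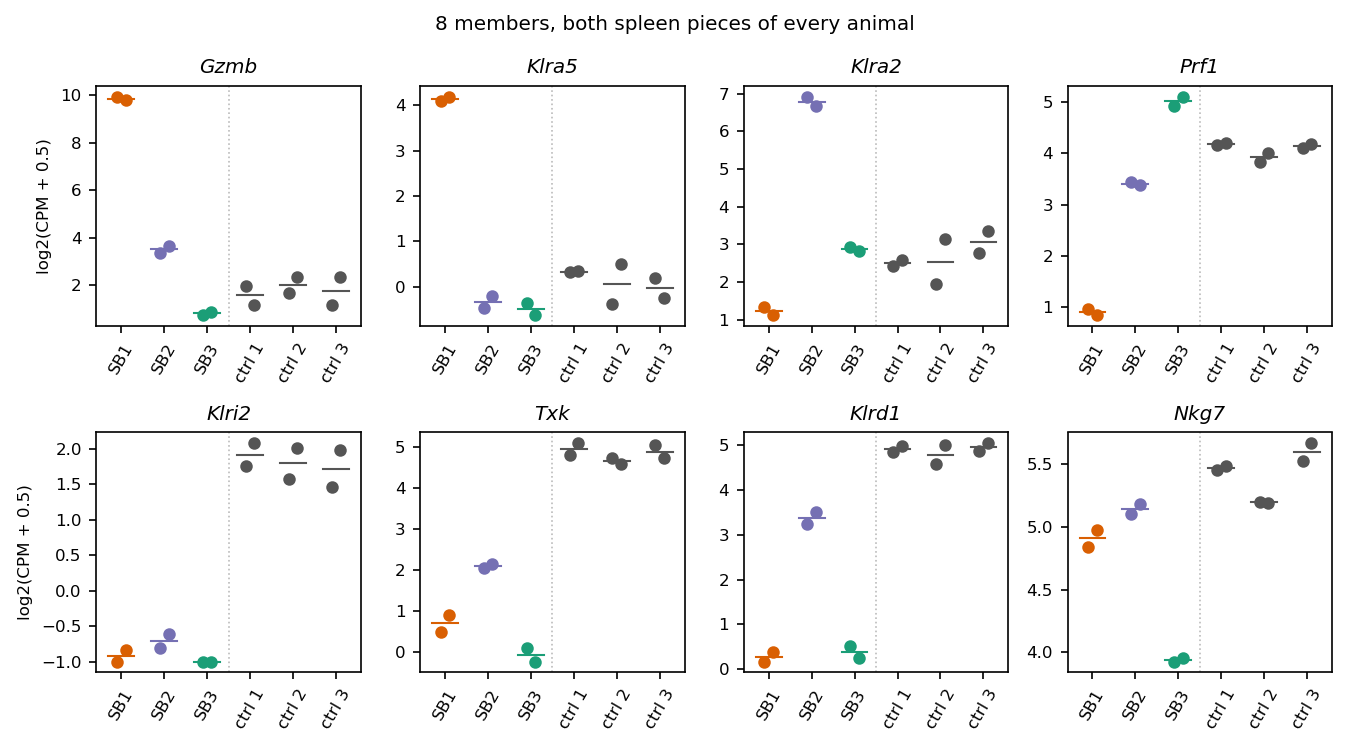
Levels of 8 genes as log2(CPM + 0.5) (y axes) in both pieces of every animal (x axis, SB left of controls), with 1 point per piece and a line at the mean of the 2 pieces. Gzmb and Klra5 stand highest in SB1, Klra2 in SB2 and Prf1 in SB3, while all SB pieces of Klri2, Txk, Klrd1 and Nkg7 lie below all control pieces.

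Per kilobase of exon, which allows genes to be compared, the leading gene was Gzmb in SB1 at 651 CPM per kilobase, Klra2 in SB2 at 57.6 and Nkg7 in SB3 at 16.5, against Nkg7 in controls at 46.1. Klrd1 was second in controls at 22.5 CPM per kilobase, whereas second place went to Nkg7 in SB1 and SB2 and to Prf1 in SB3.

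The promoters of the genes that stood apart in one spleen are shown from 250 bases before to 50 bases after the RefSeq start, from RefSeq on GRCm38.p6, 5′ to 3′ in the sense of the gene. Capitals mark 3 short motifs of factors known in NK and myeloid cells, searched on both strands: the T-box core GTGTGA, the RUNX core TGTGGT and the PU.1 core GAGGAA. The Gzmb window is chr14:56262285-56262584 (minus strand), Klra5 chr6:129913175-129913474 (minus), Klra2 chr6:131247313-131247612 (minus) and Prf1 chr10:61297586-61297885 (plus).
Gzmb: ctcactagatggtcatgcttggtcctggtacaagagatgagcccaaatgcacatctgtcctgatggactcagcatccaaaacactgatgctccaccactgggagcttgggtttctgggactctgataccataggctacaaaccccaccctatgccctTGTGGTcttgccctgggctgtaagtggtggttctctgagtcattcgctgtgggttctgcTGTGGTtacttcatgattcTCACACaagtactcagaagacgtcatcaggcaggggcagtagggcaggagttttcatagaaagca
Klra5: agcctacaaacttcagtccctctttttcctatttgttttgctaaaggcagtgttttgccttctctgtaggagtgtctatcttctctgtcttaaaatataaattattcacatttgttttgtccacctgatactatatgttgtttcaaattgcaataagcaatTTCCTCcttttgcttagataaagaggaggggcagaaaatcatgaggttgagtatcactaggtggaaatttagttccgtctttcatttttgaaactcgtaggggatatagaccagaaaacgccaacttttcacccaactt
Klra2: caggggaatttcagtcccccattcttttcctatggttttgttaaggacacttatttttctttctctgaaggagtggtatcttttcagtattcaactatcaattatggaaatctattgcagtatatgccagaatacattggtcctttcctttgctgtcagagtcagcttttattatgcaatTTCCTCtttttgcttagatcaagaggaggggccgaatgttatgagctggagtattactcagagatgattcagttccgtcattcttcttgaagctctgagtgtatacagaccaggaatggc
Prf1: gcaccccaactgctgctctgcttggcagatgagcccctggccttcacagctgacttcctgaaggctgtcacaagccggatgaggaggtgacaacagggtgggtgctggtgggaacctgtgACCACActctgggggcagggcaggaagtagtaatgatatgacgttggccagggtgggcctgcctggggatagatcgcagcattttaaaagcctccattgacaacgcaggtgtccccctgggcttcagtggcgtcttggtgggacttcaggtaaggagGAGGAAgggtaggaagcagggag
Gzmb held 1 T-box and 2 RUNX matches, Prf1 1 RUNX and 1 PU.1 match, and Klra5 and Klra2 1 PU.1 match each. Of the 37 genes matched to the promoter table, 8 held the T-box core, 17 the RUNX core (45.9%) and 21 the PU.1 core (56.8%), where 14.4%, 16.9% and 28.3% of 27025 promoters of this length did. For those of the 37 genes with more than 1 listed start, only the window of the first was counted. Other windows held the T-box core in Gzmm, the RUNX core in Txk and the PU.1 core in Klra7 and Klre1, which are not in these counts. Neighbouring copies share promoter sequence, and a match describes letters, not binding.

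Values that moved with the 3 separate patterns were as follows. In SB1, beside Gzmb and Klra5, the 8 mast cell and basophil markers summed to 416 CPM, with 43.1 and 141 CPM in SB2 and SB3, against 41.8 to 55.3 CPM in controls. Most of the sum in SB2, SB3 and controls was Kit, the stem cell factor receptor. Without Kit the other 7 summed to 246, 5.39 and 1.38 CPM in SB1, SB2 and SB3, against 3.90 to 9.48 CPM in controls. SB3 was then below the controls. Fcer1a, the IgE receptor alpha chain, was at 231 CPM and Kit at 170 CPM in SB1, against 0.260 to 0.632 CPM and 36.7 to 45.8 CPM in controls. Ms4a2, the receptor beta chain, at 6.62 CPM and the protease Cpa3 at 5.17 CPM were also above their controls, at 0.565 to 1.75 CPM and 0.773 to 1.32 CPM. The proteases Mcpt8 at 2.02 CPM and Prss34 at 1.45 CPM lay within the control range of 0.446 to 2.14 CPM and 0.715 to 2.98 CPM. Cma1 was at 0.171 CPM, against 0.481 to 0.624 CPM, and Tpsb2 at 0.256 CPM, against 0.162 to 0.181 CPM. Of the innate lymphoid markers, Zbtb16 was at 49.98, 5.70 and 2.14 CPM in SB1, SB2 and SB3, against 1.30 to 2.71 CPM in controls, and Tcrg-C1 at 70.4, 7.73 and 58.7 CPM, against 2.83 to 3.48 CPM in controls. Cd3e at 1.45 CPM and Cd8a at 1.42 CPM in that spleen were far under their control values. In SB3, beside Prf1, the T cell adaptor Lat was at 466 CPM, against 125 to 162 CPM in controls, while Cd3e was at 0.995 CPM and Cd8a at 2.01 CPM. The part of any of these cell types in the granule results was not tested.

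The partners of these genes, from lists chosen with earlier results of the data known, were uneven. Of 14 adaptor and signalling genes, 3 were lower, 0 higher and 11 not called by edgeR, with a median log2 change of -0.88 beside 0.11 for all genes. Lck, the kinase that starts T cell receptor signalling, was lower (log2 -3.29, adjusted p = 0.00636), as were the signalling chain Cd247, which is also among the T cell markers (log2 -3.59, adjusted p = 0.0304) and the kinase Syk (log2 -1.80, adjusted p = 0.0307). Tyrobp, the DAP12 adaptor of Ly49D and Ly49H, stood at 90.6, 581 and 47.4 CPM in SB1, SB2 and SB3, against 95.8 to 102.3 CPM in controls. Hcst, the DAP10 adaptor of NKG2D, stood at 17.3, 18.2 and 3.91 CPM, against 33.2 CPM on average in controls. Tyrobp was thus highest where Klra2 was highest, and Hcst was below controls in each SB animal.

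Of 11 genes of granule processing and release, 1 was lower, 0 higher and 10 not called by edgeR, with a median log2 change of 0.59, beside -0.76 for the receptor and granule genes. Ctsw, a cathepsin of cytotoxic lymphocytes, was the lower one, at 4.09, 12.3 and 4.22 CPM in SB1, SB2 and SB3, against 36.1 to 45.8 CPM in controls (log2 -2.61, adjusted p = 0.023). In SB1, where Gzmb was high, the granule proteoglycan gene Srgn was at 784 CPM and the granule docking gene Rab27a at 218 CPM, against 276 to 305 CPM and 36.5 to 42.9 CPM in controls. Unc13d, which primes granules for fusion, was at 312, 57.8 and 413 CPM in SB1, SB2 and SB3, against 140 to 150 CPM in controls. Ctsc, which activates granzymes, was at 110.5, 845 and 113 CPM in SB1, SB2 and SB3, against 215 to 259 CPM in controls. Lamp1, Lyst and Serpinb9 were also below controls in SB1, at 287, 15.1 and 21.9 CPM. Their controls were at 330 to 363, 47.5 to 61.5 and 47.0 to 56.3 CPM. Stxbp2 was above controls in SB1, at 329 CPM against 171 to 174 CPM.

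Of 17 cytokine receptor and transcription factor genes, 1 was lower, 2 higher and 14 not called, with a median of -0.13. Il7r was lower (log2 -3.00, edgeR adjusted p = 0.0402), and Nfil3 and Zeb2, factors of NK cell development and maturation, were higher (log2 1.35 and 1.40, edgeR adjusted p = 0.0406 and 0.0411). Nfil3 and Eomes, both NK cell factors, therefore lay on opposite sides of the controls in SB1 and SB3, where Nfil3 was at 11.1 and 6.38 CPM, against 3.25 to 3.57 CPM in controls. The interleukin-18 receptor chains Il18r1 and Il18rap were at 245 and 323 CPM in SB1, against 23.3 to 30.6 and 22.02 to 26.5 CPM in controls, and Tox at 599 CPM against 11.7 to 14.6 CPM. Il2rb and Il2rg were below controls in SB1, at 6.02 and 25.4 CPM against 61.8 to 83.3 and 190 to 207 CPM. Ets1 was at 2097 CPM in SB3, the spleen with high Prf1, and at 76.1 and 84.7 CPM in SB1 and SB2. Controls were at 842 to 922 CPM.

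Of 9 tested effector cytokine, chemokine and homing genes, 2 were lower, 0 higher and 7 not called by edgeR, with a median of -1.24. S1pr5, which lets NK cells leave lymphoid tissue, was lower (log2 -3.19, adjusted p = 0.0187), as was the chemokine Xcl1 (log2 -3.54, adjusted p = 0.0494). Ccl3 and Ccl4, chemokines of activated NK and myeloid cells, stood at 19.4 and 31.9 CPM in SB2, against 0.942 to 1.26 and 1.29 to 2.53 CPM in controls. Of 15 other NK surface genes, 2 were lower (Cd27 and Slamf6), 0 higher and 13 not called, with a median of -0.61. Of 16 tested ligand genes, 3 were lower, 0 higher and 13 not called, with a median of -0.65. Clec2d, the ligand of the inhibitory NKR-P1 receptor, was lower (log2 -1.18, edgeR adjusted p = 0.0137), as were the NKG2D ligand H60b (log2 -4.43, edgeR adjusted p = 0.0308) and the cadherin Cdh2 (log2 -3.16, edgeR adjusted p = 0.0264).

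Few differences between the 2 pieces of a spleen passed the test for these genes. Over all animals, piece 2 against piece 1 called 0 of 33 by edgeR, where 2.16% of all genes were called. At an unadjusted p under 0.05 there were 4 of 33, where 3757 of all 15523 genes were under it. In SB animals the comparison called 0 of 33, where 0.0% of all genes were called. There 2 of 33 were at an unadjusted p under 0.05, where 3305 of 15523 genes were. In controls, section B was higher than section A for 3 of 33, where 6.17% of all genes were higher. These were Gzma (log2 0.88, SE 0.20, edgeR adjusted p = 0.0251), Klra2 (log2 0.69, SE 0.18, edgeR adjusted p = 0.0403) and Klrb1c (log2 0.69, SE 0.19, edgeR adjusted p = 0.0466). The ratio of piece 2 to piece 1 for Gzma was 1.39, 0.973 and 0.779 in SB1, SB2 and SB3, and 1.16, 2.43 and 2.19 in controls 1, 2 and 3. All 3 calls in controls were lost without control 2 or without control 3, where 0 were called, and those of Klra2 and Klrb1c also without SB2 or SB3. The difference between the genotypes in the piece effect had 5 of 33 at an unadjusted p under 0.05, where 2799 of 15523 genes were. That difference passed for 0 of 33, where 1.28% of all genes passed. Klra2 came nearest (log2 difference -0.89, SE 0.24, edgeR adjusted p = 0.0913), with ratios of 0.821, 0.844 and 0.933 in SB1, SB2 and SB3 and 1.13, 2.46 and 1.54 in controls 1, 2 and 3. Gzmb in SB1, Klra2 in SB2 and Prf1 in SB3 were thus at nearly the same level in both pieces, with ratios of 0.901, 0.844 and 1.13.

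**Figure D5:**
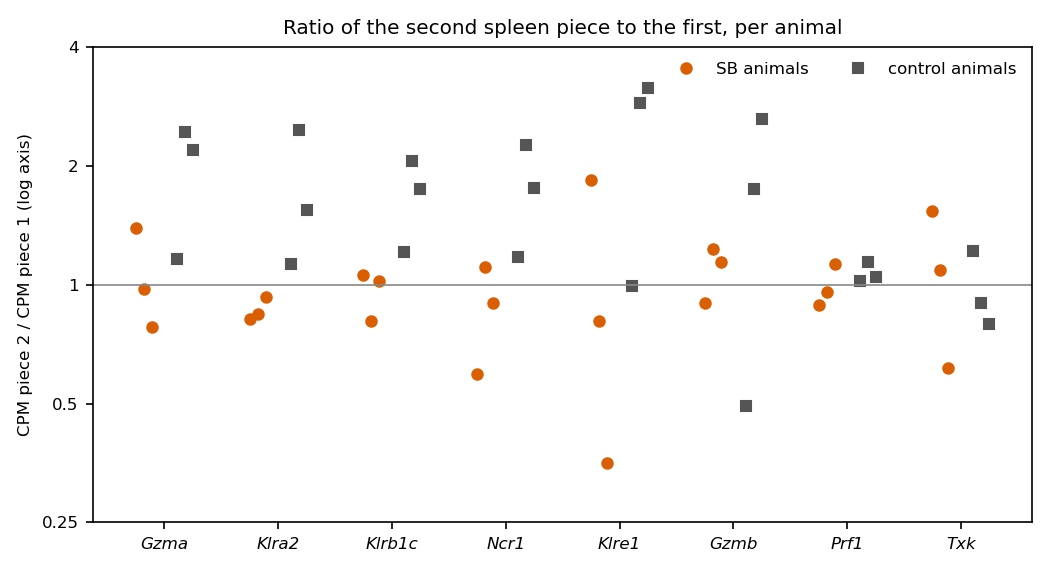
Ratio of CPM in piece 2 to CPM in piece 1 (y axis, log scale) for 8 genes (x axis), with 1 point per animal, circles for SB left of squares for controls. Gzma, Klra2, Klrb1c and Ncr1 lie above 1 in all 3 controls and near or below 1 in most SB animals, and Prf1 lies near 1 in all 6.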

How the data were processed

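Whole-number read counts per Ensembl gene, 1 column per piece, were used as the authors deposited them, and that they are raw counts was judged from the values. Per the labels' protocols, libraries were unstranded and poly-A selected, so reads of antisense partners cannot be separated. STAR 2.5.3a, limma, mm10 and GRCm38 are named in the submitters' processing notes with no role, and the counting step is not given in the sources used here. Symbols and positions came from GENCODE release M21 (32026 of 32121 genes matched). The animal was the replicate. Pieces were summed and genotypes compared with edgeR 4.0.16 in R 4.3.3 (TMM, filterByExpr, robust quasi-likelihood fit, two-sided, Benjamini-Hochberg over all genes tested, threshold 0.05). Pieces were compared in 12 libraries with the animal as a block, and animals of a genotype by an F test in the same libraries. DESeq2 1.42.0 and limma 3.58.1 were alternatives. Ratios of 1 animal to the control mean on the log2 scale use CPM + 0.5, which understates changes of low genes. Values per library are given for called genes and for genes averaging 2 CPM or more over SB or control libraries. The scripts were tested on simulated counts. The genes and lists were chosen with earlier results of these data known. Mice of 1 genotype are taken as separate animals from their titles. The summed level of the innate lymphoid marker list is not reported here.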

Additional observations from a re-analysis of the deposited data

How the results depend on the processing

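The 36 tested genes gave 2 lower calls and 0 higher in the genotype comparison under RLE size factors, a stricter filter of at least 1 CPM in 3 animals, no filter, a non-robust fit and either piece alone. DESeq2 gave 5 of 44 lower and limma voom 11, with a voom median of -1.87, and voom moved the median of all genes by -0.12. Leaving out 1 animal gave 0 to 22 calls and a median of -2.99 to -0.48; the 0 came without any 1 control, where 1.4% to 2.22% of all genes were called, and the 22 without SB2, where 17.7% were lower. The test among SB animals gave 15 to 32 calls when 1 animal was left out. The 15 of 35 came without SB2, where 7299 of all 16047 genes were called. The 32 came without SB1, control 1 or control 2, where 9116 of 15996, 11226 of 15976 and 11830 of 16209 genes were called. With no filter it called 36 of 44, where 13320 of 32121 genes were called. For section B against A in controls there were 0 to 5 calls when 1 animal was left out. The 0 came without control 2 or control 3, where 0 of all genes were called. The 5 came without control 1 or SB1, where 1022 of 15976 and 3383 of 15996 genes were called. With no animal block 0 were called, as over all genes. With no filter 5 of 44 were called, where 2194 of 32121 genes were called. With no filter the piece comparison over all animals called 1 of 44, where 1861 of 32121 genes were called. The difference between genotypes in the piece effect then called 1 of 44, where 1218 of 32121 genes were called. Leaving out 1 animal gave 0 to 1 for that difference, the 1 without control 1, where 535 of 15976 genes were called. Causes of these changes were not tested. No paired analysis was possible because nothing in the labels pairs SB with control mice.

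Signs turned for genes that were not called. When 1 animal was left out, the log2 change ran from -1.83 to 0.056 for Fasl, -3.37 to 0.11 for Gzmk, -3.00 to 0.12 for Klra1, -2.47 to 0.12 for Klra17, -0.49 to 3.23 for Klra2, -1.23 to 3.82 for Klra5, -2.90 to 0.45 for Klra7, -3.54 to 0.072 for Klra9, -0.48 to 0.84 for Klrb1a, -0.22 to 0.13 for Klrb1f, -1.31 to 1.41 for Klrc3, -0.47 to 1.91 for Klrg2 and -1.51 to 0.37 for Prf1. With piece 1 only Klra7 was at 0.30, with piece 2 only Klrb1a was at -0.10 and Klrb1f at -0.21, with voom Klrb1a was at -0.13, and Klrb1f was at -0.00079 with DESeq2 and -0.019 with no filter. Of the alternatives for single genes, 425 kept direction and side of the threshold, 33 passed it newly, 7 no longer passed and 26 turned. Genes under about 1 CPM rest on few counts, which limits what these libraries can show.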
